A study of Homo sapiens with 52 samples.

Results

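The 43 genes described here encode the lysosome's digestive enzymes, their helper proteins and membrane partners, the V-ATPase proton pump that acidifies the organelle, and the transcription factors TFEB, TFE3 and MITF that control many of these genes. They were picked by gene symbol for their known functions, with earlier results of these data known, from 62696 genes counted in the tumour lines and 61209 counted in THP-1 cells. HepG2 and Huh6 are established hepatoblastoma lines, and THP-1 is an established monocytic leukaemia line. HepG2 cells received PKF118-310 at 0.2 or 0.3 µM, iMDK at 5 or 10 µM, or vehicle, all for 48 h. Huh6 cells received PKF118-310 at 0.2, 0.3 or 0.4 µM, the same iMDK doses, or vehicle, also for 48 h. PKF118-310 blocks Wnt signalling through beta-catenin and iMDK inhibits the growth factor midkine. THP-1 cells in every group were first made into macrophages with 80 ng/ml PMA for 48 h and rested for 48 h. They were then mixed for 24 h with HepG2 or Huh6 cells that had been pre-treated for 24 h with 5 or 10 µM iMDK, or mixed with cells of either line without iMDK, or kept alone, and THP-1 cells were sorted before RNA extraction. No group of THP-1 cells alone received iMDK, and the inhibitor was given to the tumour cells before mixing, so an effect of carried-over inhibitor on the macrophages themselves cannot be told apart from one through the tumour cells. Each of the 18 groups had 3 libraries, except HepG2 with 0.3 µM PKF118-310, which had 1, giving 31 tumour and 21 THP-1 libraries. Each model is a single line, and the labels do not say that the libraries of a group came from separate cultures, so p-values measure the spread between these samples, which may be technical.

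Lysosomes digest proteins, sugars and lipids with hydrolases that work best at acid pH, and the V-ATPase supplies the acid by pumping protons across the lysosomal membrane. When nutrients are short, the kinase complex mTORC1 releases TFEB and TFE3, which enter the nucleus and bind short E-box sequences near lysosomal and autophagy genes. Hepatocytes use lysosomes for autophagy and for the breakdown of lipoprotein lipids, and macrophages use them to digest what they engulf.

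Library totals were 18284605 to 20043105 counts in HepG2, 18172462 to 19912509 in Huh6 and 12623973 to 16940245 in THP-1. A count of 3, the number that an observed 0 still allows, corresponds to 0.15 to 0.165 CPM, the count scaled to 1000000 per library, in a tumour library and 0.177 to 0.238 CPM in a THP-1 library, for counting error only. Of 14 hepatoblastoma markers, 14 averaged at least 100 CPM in HepG2 vehicle cells and 10 in Huh6 vehicle cells. Of 10 macrophage markers, 9 averaged at least 100 CPM in THP-1 cells alone and 10 in THP-1 cells with either untreated partner. Among the same markers, 1 averaged at least 100 CPM in HepG2 vehicle cells and 0 in Huh6 vehicle cells. The macrophage markers summed to 1149.9 to 1294 CPM in HepG2, 36 to 38.2 CPM in Huh6 and 4946 to 5466 CPM in THP-1 cells alone. After a filter on low counts, 38 of the 43 genes were tested in Huh6, 37 in HepG2 and 39 in THP-1. GLA and HEXA, which encode the lysosomal enzymes alpha-galactosidase A and the alpha subunit of beta-hexosaminidase, had 0 counts in all 52 libraries. CTSD, which encodes the aspartic protease cathepsin D, had 3 counts over all tumour libraries and 23 over all THP-1 libraries, and 41.7% of its exonic bases are shared with an annotated gene on the same strand. These values are not evidence of absent RNA, since the annotation used for counting is not given in the sources used here, and CTSD was not tested. ATP6V0D2, a V-ATPase subunit isoform, was tested in no cell type, CTSS and CLN3 were tested in HepG2 or Huh6 but not in both lines, and CTSF was not tested in HepG2.

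Per kilobase of exon, prosaposin had the highest level as counted among the 43 genes in all 3 cell types. CTSD, GLA and HEXA could not be placed in this order, since their counts are not evidence of absent RNA. The exon lengths may also differ from those of the annotation used for counting, which is not given. PSAP, the precursor of activator peptides for lipid hydrolases, stood at 1527 RPKM (CPM divided by kilobases of exon) in THP-1 cells alone, 341 RPKM in HepG2 vehicle cells and 381 RPKM in Huh6 vehicle cells. CTSB, which encodes the cysteine protease cathepsin B, followed at 884 RPKM in THP-1 and 111 RPKM in HepG2, whereas in Huh6 the next was CTSL, encoding the cysteine protease cathepsin L, at 174 RPKM. CD63, a tetraspanin of the lysosomal membrane, ranked behind 2 other genes in both tumour lines at 101 RPKM in HepG2 and 150 RPKM in Huh6, and behind 3 others in THP-1 at 588 RPKM. The macrophages also had 417 RPKM of CTSZ and 103 RPKM of CTSS, both cathepsins, against 0.403 and 0.781 RPKM in HepG2 vehicle cells and 0.569 and 0.00402 RPKM in Huh6 vehicle cells. Tumour and THP-1 tables were normalised separately, so these levels were set side by side without a test.

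Before any inhibitor was added, 34 of 39 lysosomal genes tested differed between HepG2 and Huh6 vehicle cells, a share near that of all genes. In HepG2, 19 were higher and 15 lower than in Huh6, and 79.8% of all 16149 genes tested differed, 38.7% higher and 41.1% lower (edgeR's quasi-likelihood test, adjusted over all genes, threshold 0.05). The median difference on the log2 scale was 0.10 for the lysosomal genes and -0.04 for all genes. Because these are bulk samples, fewer cells in a state and less RNA per cell cannot be told apart. The cysteine proteases ran in opposite directions. CTSH, the aminopeptidase cathepsin H, had 229, 213 and 226 CPM in HepG2 against 39.8, 37.3 and 38.2 CPM in Huh6, a log2 difference of 2.51 ± 0.040 (SE, 3 libraries per line, adjusted p = 1.27e-48). CTSL had 77.7, 72 and 75.6 CPM in HepG2 against 416, 409.5 and 412 CPM in Huh6, a log2 difference of -2.49 ± 0.034. Cathepsin B RNA was higher in HepG2 by 0.86 on the log2 scale, and neither line overlapped the other for these 3 proteases. LIPA, the acid lipase that cleaves cholesteryl esters and triglycerides, was higher in HepG2 by 2.04 and ASAH1, acid ceramidase, by 1.31. The V-ATPase subunit ATP6V1B2 was higher in HepG2 by 1.47, and SCARB2, the receptor that carries beta-glucocerebrosidase to lysosomes, was lower by 1.10. LAMP1, an abundant glycoprotein of the lysosomal membrane, differed by 0.05 and did not pass the test.

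The 3 related transcription factors were unevenly shared between the lines. MITF had 0.474, 0.523 and 0.624 CPM in HepG2 vehicle cells and 148, 147 and 145 CPM in Huh6 vehicle cells, a log2 difference of -8.10 ± 0.10. TFEB had 23.2, 24.3 and 21.8 CPM in HepG2 and 8.2, 10.1 and 10.1 CPM in Huh6, a log2 difference of 1.26 ± 0.093. TFE3 had 68.7, 62.5 and 66.4 CPM in HepG2 and 62.3, 59.4 and 62.8 CPM in Huh6. The lines therefore did not overlap for MITF and TFEB, while the TFE3 libraries overlapped and its log2 difference of 0.07 did not pass the test. CTSS, which encodes cathepsin S, had 3.48, 2.67 and 3.74 CPM in HepG2, against a single count over the 3 Huh6 vehicle libraries, so no fold is given. CTSF, the cysteine protease cathepsin F, went the other way at 0.158, 0.105 and 0.17 CPM in HepG2 and 6.45, 8.31 and 8.46 CPM in Huh6.

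iMDK raised a wide set of lysosomal genes in both tumour lines. In HepG2, 23 of 37 tested genes rose and 5 fell at 5 µM, and 23 rose and 6 fell at 10 µM, where 51.6% and 58.9% of all genes tested changed, 25.6% and 29.9% rising and 26% and 29% falling. In Huh6, 17 of 38 rose and 6 fell at 5 µM, and 17 rose and 8 fell at 10 µM, where 35.6% and 52.1% of all genes changed, 17.3% and 26% rising and 18.3% and 26.1% falling. The median log2 fold change over the lysosomal genes was 0.37 and 0.46 in HepG2 and 0.13 and 0.10 in Huh6 at the low and high dose, beside 0.02 in HepG2 and 0 in Huh6 over all genes at either dose. The 15 genes higher in all 4 iMDK comparisons were ASAH1, ATP6V0D1, ATP6V1H, CD63, CTSA, CTSB, CTSL, LAMP1, MCOLN1, NEU1, NPC1, PSAP, SQSTM1, TFE3 and TPP1, and the 2 lower in all 4 were GUSB and TFEB. The share of all genes called in the same direction in all 4 comparisons was not counted. The shares above do not give it, because the 2 doses share their vehicle libraries. In the same comparisons the summed level of 14 hepatoblastoma markers was 24623 to 25108 CPM in HepG2 with 10 µM iMDK against 34013 to 37364 CPM with vehicle, and 8357 to 8649 CPM in Huh6 with 10 µM against 12534 to 12635 CPM with vehicle. The part of this change in the lysosomal result was not tested.

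SQSTM1, the autophagy receptor p62 that links ubiquitinated cargo to the autophagosome and is itself degraded in lysosomes, had the largest rise of the 43 genes in both lines with iMDK. In HepG2, SQSTM1 had 231, 221 and 232 CPM with vehicle, 802, 816 and 782 CPM with 5 µM iMDK and 1199.7, 1186 and 1168 CPM with 10 µM. In Huh6 it had 209.7, 205 and 208 CPM with vehicle, 656, 667 and 642 CPM with 5 µM and 1024, 1043 and 1063 CPM with 10 µM. The means were 1185 ± 15.7 CPM with 10 µM and 228 ± 6.09 CPM with vehicle in HepG2, and 1043 ± 19.3 CPM with 10 µM and 208 ± 2.24 CPM with vehicle in Huh6 (SD, n = 3 each), and no dose group overlapped another in either line. At 10 µM the log2 fold change was 2.37 ± 0.031 in HepG2 and 2.33 ± 0.026 in Huh6, and the difference between the lines of 0.07 did not pass the test (adjusted p = 0.176). The 10 µM dose exceeded the 5 µM dose by 0.57 ± 0.028 in HepG2 and 0.67 ± 0.024 in Huh6. SQSTM1 lies on chromosome 5 from 179806398 to 179838078 (GRCh38, plus strand), and 22% of its exonic bases are annotated to genes on the opposite strand.

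**Figure D1:**
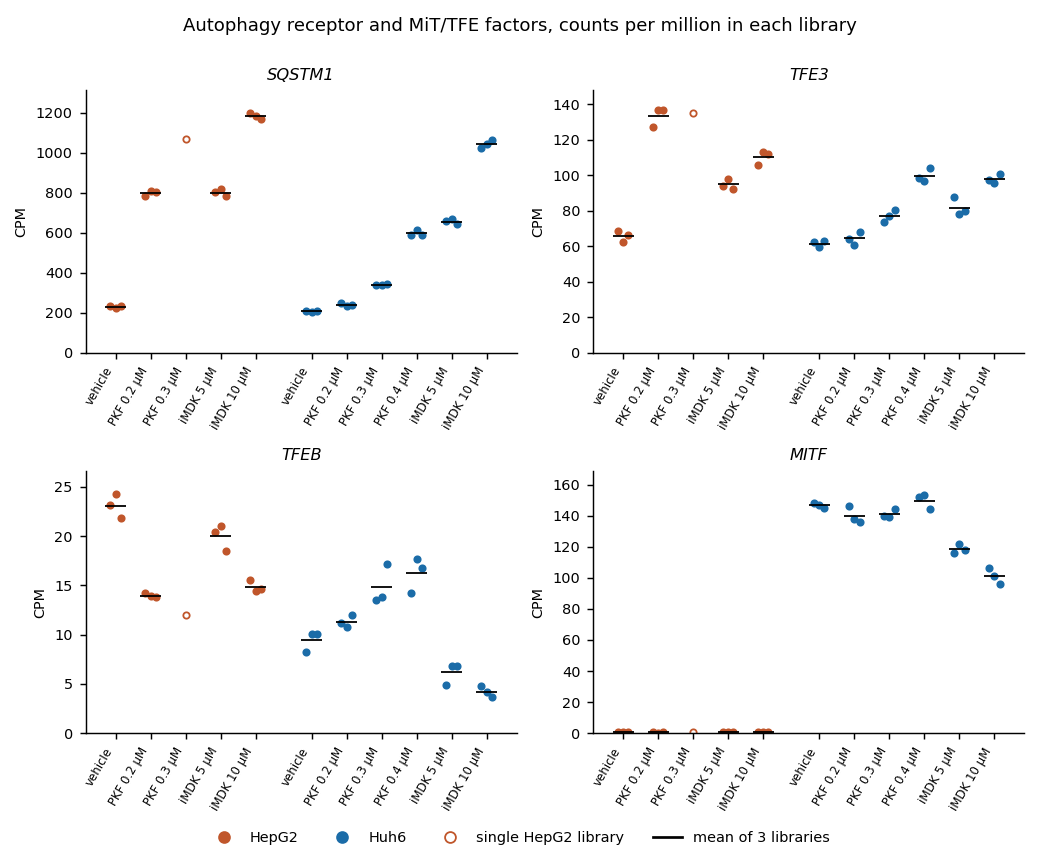
Scaled counts in CPM (y axis) of the autophagy receptor SQSTM1 and of the transcription factors TFE3, TFEB and MITF in each tumour library, by line and inhibitor dose (x axis). Points are libraries, lines are means of 3 and the open point is the single HepG2 library with 0.3 µM PKF118-310; SQSTM1 climbed to 1168 to 1199.7 CPM in HepG2 and 1024 to 1063 CPM in Huh6 with 10 µM iMDK, while TFEB with PKF118-310 was lower in HepG2 and higher in Huh6 than with vehicle.

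Among the transcription factors, TFE3 rose and TFEB fell with iMDK in both lines. TFEB, on chromosome 6 from 41683978 to 41736259 (minus strand), had 23.2, 24.3 and 21.8 CPM with vehicle, 20.4, 21 and 18.5 CPM with 5 µM and 15.5, 14.4 and 14.6 CPM with 10 µM in HepG2. In Huh6, TFEB had 8.2, 10.1 and 10.1 CPM with vehicle, 4.93, 6.86 and 6.79 CPM with 5 µM and 4.81, 4.16 and 3.69 CPM with 10 µM. All iMDK libraries lay below the vehicle libraries of their line, and TFEB fell at 10 µM by 0.64 ± 0.076 in HepG2 and by 1.16 ± 0.14 in Huh6 on the log2 scale. TFE3, on the X chromosome from 49028726 to 49043486 (minus strand), had 106, 113 and 112 CPM with 10 µM against 68.7, 62.5 and 66.4 CPM with vehicle in HepG2. In Huh6, TFE3 had 97.4, 95.9 and 101 CPM with 10 µM against 62.3, 59.4 and 62.8 CPM with vehicle. The groups did not overlap, and the log2 fold changes of 0.75 ± 0.044 in HepG2 and 0.68 ± 0.045 in Huh6 gave a difference between the lines of 0.09 ± 0.064 that did not pass the test (adjusted p = 0.284). MITF fell in Huh6 to 106, 101 and 96.3 CPM with 10 µM against 148, 147 and 145 CPM with vehicle, while in HepG2 it stayed at or below 1.11 CPM with either dose and did not pass the test.

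The peptidases were split. CTSL had 238, 231 and 229.5 CPM with 10 µM iMDK against 77.7, 72 and 75.6 CPM with vehicle in HepG2, and 769, 746 and 734 CPM against 416, 409.5 and 412 CPM in Huh6. CTSB had 1591, 1586 and 1563 CPM against 851, 812 and 821 CPM in HepG2, and 529, 506 and 499 CPM against 457, 442 and 442 CPM in Huh6. For both proteases the libraries with iMDK lay above those with vehicle in either line. The log2 fold changes of CTSL were 1.63 ± 0.038 in HepG2 and 0.86 ± 0.024 in Huh6, and those of CTSB were 0.93 ± 0.028 in HepG2 and 0.19 ± 0.027 in Huh6. CTSA, the carboxypeptidase that also stabilises the sialidase NEU1, rose by 0.41 in HepG2 and 0.39 in Huh6, and TPP1, a tripeptidyl peptidase, by 0.58 in HepG2 and 0.36 in Huh6. CTSC, the dipeptidyl peptidase cathepsin C, moved the other way in HepG2, where it had 185, 187 and 182 CPM with 10 µM iMDK against 313, 315 and 313 CPM with vehicle (log2 fold change -0.76 ± 0.033). In Huh6 CTSC had 137, 144 and 134 CPM against 140.1, 137 and 133 CPM, with overlapping groups and no call. CTSF fell in Huh6 by 1.35 ± 0.15, with 3.46, 3.07 and 2.55 CPM against 6.45, 8.31 and 8.46 CPM.

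Among enzymes of sugars and lipids, 3 of 3 tested lipid hydrolases rose with 10 µM iMDK in HepG2 and 1 of 3 in Huh6. Over all genes tested at this dose, 29.9% rose and 29% fell in HepG2, and 26% rose and 26.1% fell in Huh6. LIPA had 243, 248 and 255 CPM with 10 µM iMDK against 130.2, 129 and 133 CPM with vehicle in HepG2, and 32.5, 34.2 and 32.6 CPM against 30.8, 30.5 and 32.3 CPM in Huh6. Its log2 fold change was 0.93 ± 0.035 in HepG2 and 0.08 ± 0.056, not called, in Huh6, and the difference of 0.87 ± 0.063 passed the test (adjusted p = 3.47e-17). SMPD1, acid sphingomyelinase, rose by 0.92 in HepG2 and had -0.07, not called, in Huh6. ASAH1 rose in both lines, by 0.55 in HepG2 and 0.46 in Huh6. NPC1, the membrane protein that exports cholesterol from lysosomes, rose by 0.67 in both lines, while its luminal partner NPC2 passed the test in neither. Of 6 glycosidases and sulfatases tested in HepG2, 2 rose and 3 fell with 10 µM iMDK. NEU1 and IDUA, encoding alpha-L-iduronidase, rose there by 0.63 and 1.28. GUSB, encoding beta-glucuronidase, fell by 0.45 in HepG2 and 0.26 in Huh6. GAA, encoding acid alpha-glucosidase, fell in HepG2 by 0.22, and MAN2B1, encoding alpha-mannosidase, fell by 0.13, a call lost without replicate 3 of HepG2 with 10 µM iMDK. IDUA is a low gene here, at 6.78, 5.54 and 6.59 CPM with 10 µM against 2.42, 3.14 and 2.21 CPM with vehicle in HepG2.

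The membrane proteins and proton pump subunits that changed with 10 µM iMDK all rose. Of the membrane proteins, 4 of 5 tested rose in HepG2 and 3 of 6 in Huh6. Over all genes tested at this dose, 29.9% rose and 29% fell in HepG2, and 26% rose and 26.1% fell in Huh6. LAMP1 had 428, 427 and 428 CPM with 10 µM against 367, 349 and 367 CPM with vehicle in HepG2, and 494, 475 and 491 CPM against 335, 340.2 and 347 CPM in Huh6. The groups did not overlap in either line, and the rise was smaller in HepG2 (0.24 ± 0.030) than in Huh6 (0.52 ± 0.024) with a tested difference of -0.25 ± 0.039. LAMP2, the partner glycoprotein that also takes part in chaperone-mediated autophagy, passed the test in neither line. MCOLN1, the calcium channel TRPML1, rose by 0.77 ± 0.086 in HepG2 and 0.53 ± 0.11 in Huh6. SCARB2 had 8.78, 8.33 and 8.59 CPM with 10 µM against 3.95, 3.87 and 4.25 CPM with vehicle in HepG2, a log2 fold change of 1.09 ± 0.13, and was not called in Huh6. Of the 5 V-ATPase subunits tested, 4 rose in each line. ATP6V0D1, a subunit that links the membrane ring to the rotor, had 89.9, 84.9 and 81.6 CPM with 10 µM against 47, 45.5 and 45.3 CPM with vehicle in HepG2, and 84.1, 87.5 and 85.6 CPM against 63, 61.1 and 58 CPM in Huh6. It rose by 0.90 ± 0.046 in HepG2 and 0.50 ± 0.043 in Huh6. The catalytic subunit ATP6V1A rose in Huh6 by 0.17 but had -0.06 in HepG2 and was not called there.

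The promoters of 5 of the 10 genes that hold the E-box letters CACGTG, the core of the sequence that TFEB and TFE3 are known to bind, are shown. They were chosen, after their values were seen, from the 6 genes with the longer form TCACGTGA. CLN3, which also holds this form and was not tested in HepG2, was left out. Of those shown, 4 rose with iMDK and GAA did not. The stretches are the 200 bases before the transcription start as given by RefSeq on GRCh38.p14, 5′ to 3′ on the gene's strand. Capitals mark each TCACGTG, together with the next A where it reads TCACGTGA. ATP6V0D1 (chr16:67481158-67481357, minus strand) has 1 match, 59 bases before the start. CTSA (chr20:45891135-45891334, plus strand) has matches at 42 and 25 bases, GAA (chr17:80101381-80101580, plus strand) at 76 and 31 bases, and MCOLN1 (chr19:7522424-7522623, plus strand) at 41 and 14 bases. LAMP1 (chr13:113297039-113297238, plus strand) has 5, at 192, 176, 159, 142 and 28 bases before the start.
ATP6V0D1: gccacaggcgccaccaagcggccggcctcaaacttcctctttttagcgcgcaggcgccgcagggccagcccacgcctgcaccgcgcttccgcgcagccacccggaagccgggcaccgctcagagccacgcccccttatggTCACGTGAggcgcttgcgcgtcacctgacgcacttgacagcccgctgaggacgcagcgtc
CTSA: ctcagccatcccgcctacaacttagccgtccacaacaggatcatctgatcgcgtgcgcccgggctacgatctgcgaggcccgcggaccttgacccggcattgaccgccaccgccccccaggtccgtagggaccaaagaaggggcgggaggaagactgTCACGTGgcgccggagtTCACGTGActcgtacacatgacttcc
LAMP1: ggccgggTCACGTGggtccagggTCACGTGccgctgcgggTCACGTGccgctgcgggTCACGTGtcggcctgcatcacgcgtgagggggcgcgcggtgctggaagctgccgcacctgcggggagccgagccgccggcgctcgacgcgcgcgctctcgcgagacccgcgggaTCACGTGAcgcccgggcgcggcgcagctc
MCOLN1: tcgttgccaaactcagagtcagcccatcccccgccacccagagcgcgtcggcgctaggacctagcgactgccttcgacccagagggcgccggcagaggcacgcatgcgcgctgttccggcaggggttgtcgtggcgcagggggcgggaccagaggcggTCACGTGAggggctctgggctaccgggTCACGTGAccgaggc
GAA: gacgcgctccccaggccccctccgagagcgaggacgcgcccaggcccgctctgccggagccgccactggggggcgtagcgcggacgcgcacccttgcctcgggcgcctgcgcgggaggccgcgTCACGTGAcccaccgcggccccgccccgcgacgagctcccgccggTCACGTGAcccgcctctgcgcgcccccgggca
ATP6V0D1, CTSA, LAMP1 and MCOLN1 rose with iMDK at both doses in both lines. GAA, the acid alpha-glucosidase that digests glycogen, holds the longer form TCACGTGA in both of its matches and had a log2 fold change of -0.22 ± 0.035 in HepG2 and -0.05, not called, in Huh6 with 10 µM iMDK. The other genes with CACGTG were NEU1, CD63, CTSF, CTSD and CLN3. Of these NEU1 and CD63 rose with iMDK in both lines, and CTSF, with 2 matches, fell in Huh6 by 1.35 with 10 µM iMDK and 1.64 with 0.4 µM PKF118-310. A promoter of 250 bases before to 50 after the start was found in the RefSeq table for 30 of the 43 genes. On either strand, CACGTG occurred in a promoter of 10 of these 30 genes (33.3%) and of 8.77% of all 27305 genes in that table. A gene counted if any of its promoters matched. Per promoter, CACGTG occurred in 22.9% of the 48 promoters of these genes and 7.26% of all 35116 promoters. The longer form TCACGTG occurred in 9 of the 30 genes and 4.49% of all genes. TCACGTGA occurred in 6 of the 30 genes and 1.18% of all genes, each longer form being a subset of the shorter. With 10 µM iMDK in HepG2, 5 of 6 tested genes with TCACGTG rose and 1 fell, and 11 of 20 without it rose and 5 fell. In Huh6, 5 of 8 with it rose and 1 fell, and 6 of 20 without it rose and 6 fell. With 0.2 µM PKF118-310 in HepG2, 2 of the 6 with it rose and 4 fell, and 8 of the 20 without it rose and 9 fell. With 0.4 µM in Huh6, 2 of the 8 with it rose and 3 fell, and 5 of the 20 without it rose and 10 fell. With 10 µM iMDK, median log2 fold changes with and without TCACGTG were 0.52 and 0.57 in HepG2 and 0.4 and 0.01 in Huh6. For PKF118-310, these medians were -0.2 and -0.1 in HepG2 at 0.2 µM and -0.09 and -0.12 in Huh6 at 0.4 µM. Over all genes tested, the shares rising and falling with 10 µM iMDK were 29.9% and 29% in HepG2 and 26% and 26.1% in Huh6. With PKF118-310 at these doses they were 35.9% and 36.1% in HepG2 and 28.9% and 27.9% in Huh6. The promoter matches are a description of the letters and not of bound sites.

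**Figure D2:**
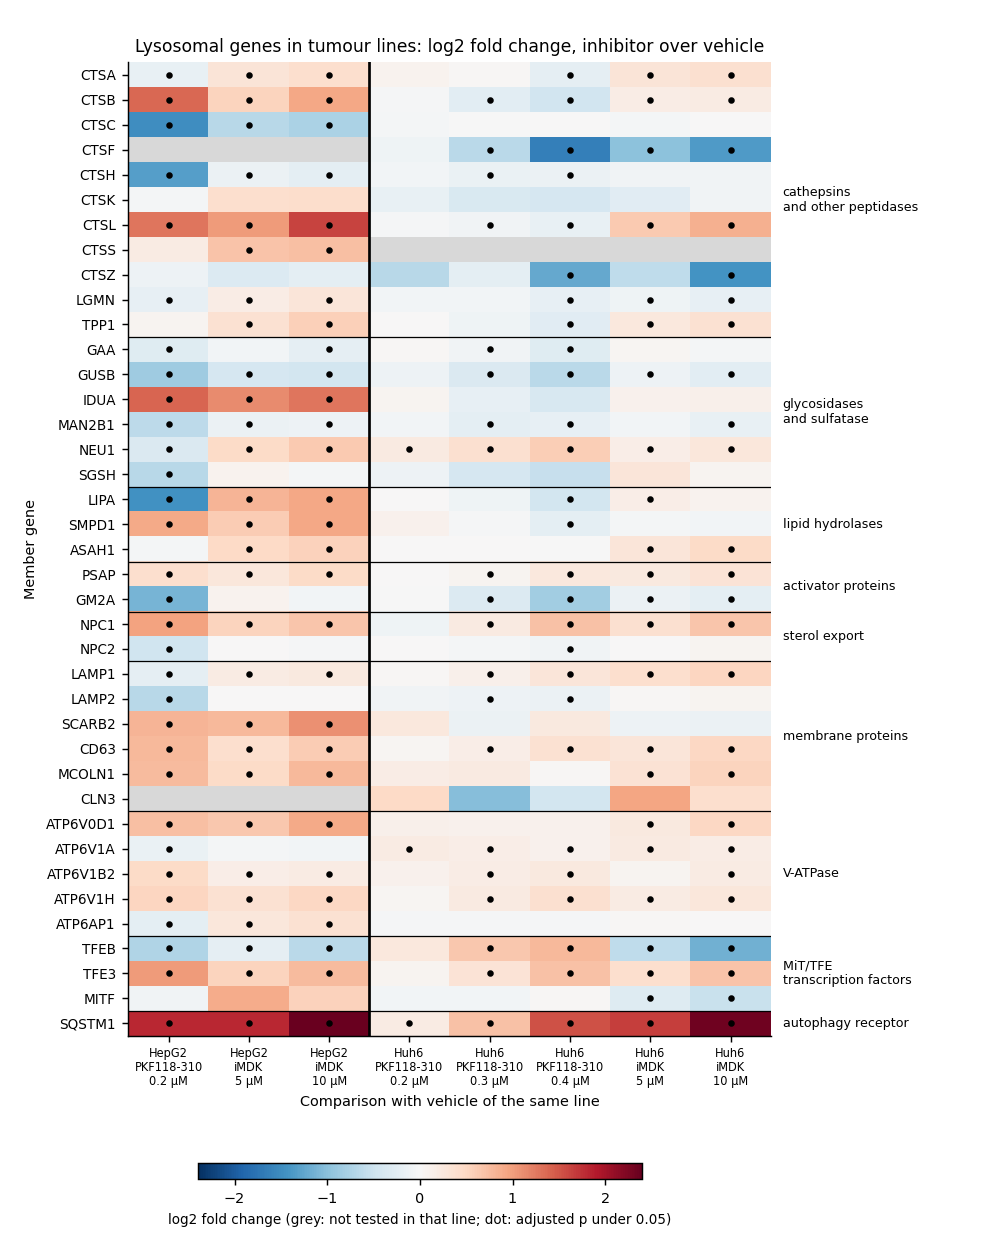
Log2 fold change of inhibitor over vehicle (colour) for each lysosomal gene tested (rows, grouped by role) in the 3 HepG2 and 5 Huh6 comparisons (columns), with a dot where the adjusted p was under 0.05 and grey where the gene was not tested. SQSTM1 is red in every column, V-ATPase genes with a dot are red apart from ATP6V1A and ATP6AP1 in HepG2 with PKF118-310, and cathepsin genes run from -1.64 (CTSF in Huh6 with 0.4 µM PKF118-310) to 1.63 (CTSL in HepG2 with 10 µM iMDK).

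At 0.4 µM, PKF118-310 in Huh6 lowered most peptidases tested and hydrolases such as GUSB and LIPA. It raised the sialidase NEU1 as well as SQSTM1, TFEB, TFE3 and NPC1, and calls were few at the lowest dose. At 0.2 µM, 3 of 38 tested genes rose and 0 fell, at 0.3 µM 11 rose and 9 fell, and at 0.4 µM 11 rose and 16 fell, where 2.24%, 28.5% and 56.8% of all genes tested changed. Over all genes tested, 1.04%, 15% and 28.9% rose and 1.2%, 13.5% and 27.9% fell at these doses. The median log2 fold change over the lysosomal genes was 0, -0.05 and -0.11 with rising dose, beside 0, 0 and -0.01 over all genes. The 3 genes called at 0.2 µM were SQSTM1 (0.20 ± 0.027), NEU1 (0.21 ± 0.028) and the V-ATPase subunit ATP6V1A (0.19 ± 0.036). Between 0.4 and 0.2 µM, 11 genes were higher and 14 lower at the higher dose, when 54.6% of all genes differed, 28.1% higher and 26.5% lower. The 14 hepatoblastoma markers summed to 7161 to 8248 CPM with 0.4 µM and 12534 to 12635 CPM with vehicle, and the part of this in the lysosomal result was not tested.

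All 8 peptidase genes that changed at 0.4 µM fell, out of 10 tested. Over all genes tested in Huh6 at this dose, 28.9% rose and 27.9% fell. CTSB had 457, 442 and 442 CPM with vehicle, 446, 441 and 434 CPM with 0.2 µM, 372, 375 and 374 CPM with 0.3 µM and 317, 324 and 331 CPM with 0.4 µM. The 0.2 µM libraries overlapped the vehicle libraries, those of 0.3 µM and 0.4 µM lay below them, and the log2 fold change at 0.4 µM was -0.46 ± 0.027. CTSF had 2.84, 2.71 and 1.9 CPM with 0.4 µM against 6.45, 8.31 and 8.46 CPM with vehicle, a log2 fold change of -1.64 ± 0.16, the lowest of the 38. CTSL had 362, 365 and 376 CPM with 0.4 µM against 416, 409.5 and 412 CPM, a smaller log2 fold change of -0.17 ± 0.025. CTSZ fell by 1.22 ± 0.44 (adjusted p = 0.0165) at levels of at most 1.27 CPM, near the counting floor. GM2A, the activator that presents ganglioside to beta-hexosaminidase, fell by 0.84 ± 0.047, GUSB by 0.65 ± 0.041 and LIPA by 0.44 ± 0.059.

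SQSTM1 rose with each PKF118-310 dose in Huh6, at 209.7, 205 and 208 CPM with vehicle, 247, 232 and 238 CPM with 0.2 µM, 339, 336 and 344 CPM with 0.3 µM and 587, 611 and 589.5 CPM with 0.4 µM. The dose groups did not overlap, and the log2 fold change at 0.4 µM was 1.52 ± 0.026. TFEB also rose, and had 14.2, 17.7 and 16.8 CPM with 0.4 µM against 8.2, 10.1 and 10.1 CPM with vehicle (log2 fold change 0.78 ± 0.11). TFE3 had 98.6, 96.9 and 104 CPM against 62.3, 59.4 and 62.8 CPM and rose by 0.70 ± 0.045. NPC1 had 113, 125 and 122 CPM with 0.4 µM against 73.9, 71.8 and 74.4 CPM, an increase of 0.71 ± 0.038, and NEU1 rose by 0.59 ± 0.028. LAMP1 and CD63 rose by 0.29 ± 0.025 and 0.37 ± 0.025. Of 5 V-ATPase subunits 3 rose at 0.4 µM, beside 28.9% of all genes tested. The largest of these rises was that of ATP6V1H, the regulatory H subunit, at 0.38 ± 0.044. MITF had 0.03 ± 0.034 and was not called.

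In HepG2, 0.2 µM PKF118-310 changed 31 of 37 tested lysosomal genes, 14 up and 17 down, in a comparison in which 72% of all genes tested changed, 35.9% up and 36.1% down. Their median log2 fold change was -0.08, beside -0.01 over all genes. CTSB and CTSL rose and CTSC and CTSH fell. CTSB had 2157, 2155 and 2103 CPM with PKF118-310 against 851, 812 and 821 CPM with vehicle, a log2 fold change of 1.37 ± 0.028, and CTSL rose by 1.28 ± 0.038. CTSC had 114, 116 and 105 CPM against 313, 315 and 313 CPM, a log2 fold change of -1.49 ± 0.034. CTSH had 89.4, 86.2 and 89.7 CPM against 229, 213 and 226 CPM, a log2 fold change of -1.33 ± 0.037. For none of these 4 proteases did the groups overlap. LIPA, which rose with iMDK in this line, fell with PKF118-310 to 50.4, 45.3 and 47.2 CPM against 130.2, 129 and 133 CPM with vehicle (-1.46 ± 0.041). Of 6 glycosidases and sulfatases, 5 fell and IDUA rose by 1.39 ± 0.16. GM2A fell by 1.11 ± 0.045 and LAMP2 by 0.67 ± 0.034, and LAMP1 had 311, 317 and 307 CPM against 367, 349 and 367 CPM, a log2 fold change of -0.21 ± 0.030.

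SQSTM1 had 781, 809 and 802 CPM with 0.2 µM PKF118-310 in HepG2 against 231, 221 and 232 CPM with vehicle, a log2 fold change of 1.80 ± 0.030. TFE3 had 127, 137 and 137 CPM against 68.7, 62.5 and 66.4 CPM and rose by 1.02 ± 0.043, while TFEB had 14.2, 13.9 and 13.8 CPM against 23.2, 24.3 and 21.8 CPM and fell by 0.73 ± 0.077. The groups did not overlap for any of the 3. NPC1 rose by 0.97 ± 0.039, SMPD1 by 0.91 ± 0.066, CD63 by 0.78 ± 0.035 and ATP6V0D1 by 0.73 ± 0.047, whereas the V-ATPase subunits ATP6V1A and ATP6AP1 fell by 0.16 ± 0.041 and 0.23 ± 0.035. All 14 hepatoblastoma markers fell in this comparison, their sum being 7636 to 8468 CPM with PKF118-310 and 34013 to 37364 CPM with vehicle, and its part in the lysosomal result was not tested. Leaving out any single library of the comparison left 31 genes called. The single library with 0.3 µM PKF118-310 had 1067 CPM of SQSTM1, 1997 CPM of CTSB and 267 CPM of CTSL, and with no replicate it was not tested. In it 6 of the 37 genes lay at least 2-fold above the vehicle mean and 0 at least 2-fold below, beside 10.4% and 13.3% of all 14111 genes.

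**Figure D3:**
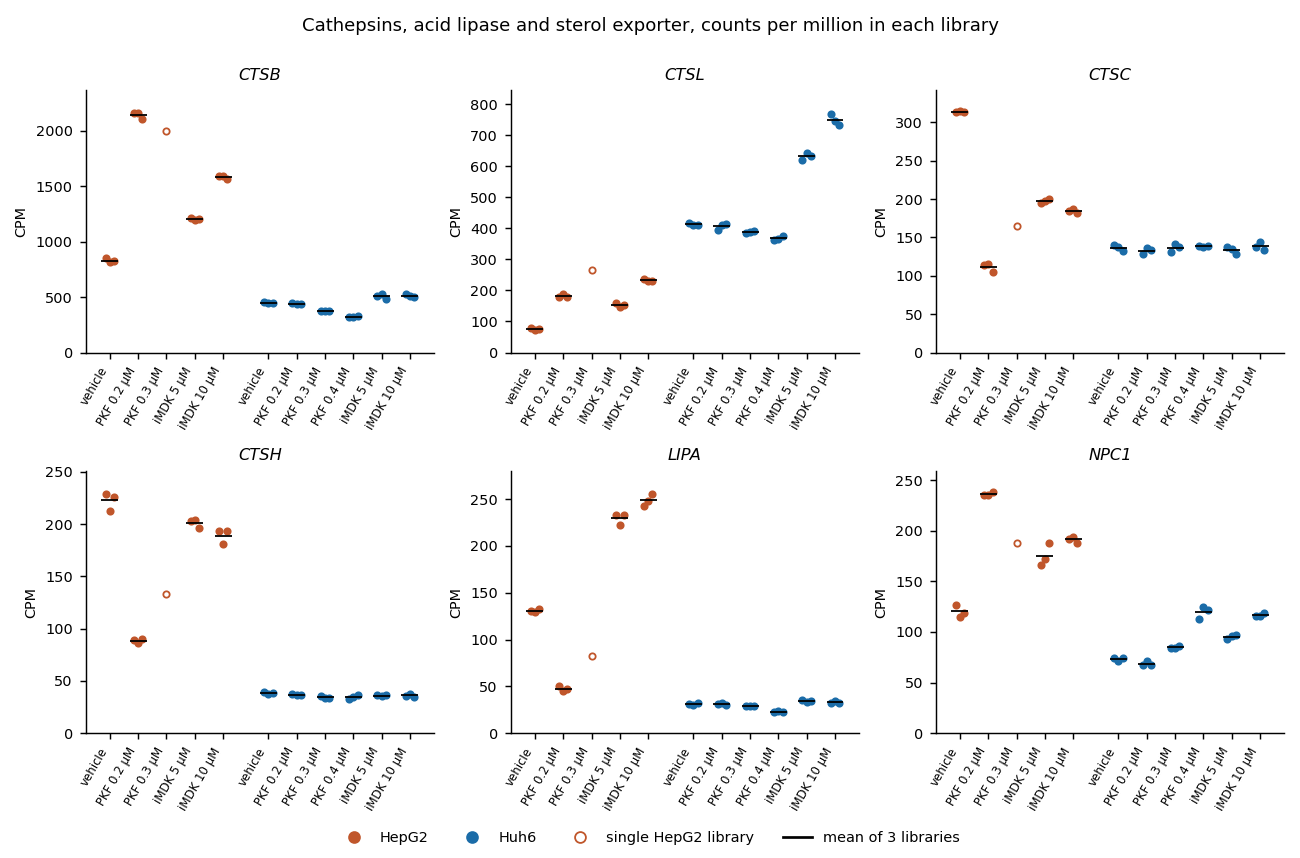
Scaled counts in CPM (y axis) of the cathepsins CTSB, CTSL, CTSC and CTSH, the acid lipase LIPA and the sterol exporter NPC1 in each tumour library, by line and inhibitor dose (x axis). Points are libraries, lines are means of 3 and the open point is the single HepG2 library with 0.3 µM PKF118-310; with 0.2 µM PKF118-310 HepG2 cells had 2103 to 2157 CPM of CTSB and 45.3 to 50.4 CPM of LIPA, while Huh6 cells at that dose overlapped their vehicle for both.

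The 2 lines answered the same inhibitor dose differently. At 0.2 µM PKF118-310 the response of 14 genes was more positive and of 16 more negative in HepG2 than in Huh6, among 39 tested, when 54.1% of all genes differed in response, 27% and 27.1% in these directions. The largest differences were 1.60 ± 0.040 for SQSTM1, 1.39 ± 0.040 for CTSB and 1.32 ± 0.23 for IDUA, and -1.46 ± 0.067 for LIPA, -1.45 ± 0.049 for CTSC and -1.26 ± 0.060 for CTSH. With iMDK the response of 18 genes was more positive and of 4 more negative in HepG2 at 5 µM, and of 17 and 5 at 10 µM, when 32% and 40.5% of all genes differed. These background shares were 14.9% more positive and 17.1% more negative at 5 µM and 19.8% and 20.7% at 10 µM. At 10 µM the largest positive differences were 1.25 ± 0.19 for SCARB2, 1.17 ± 0.23 for IDUA and 1.12 ± 0.34 for MITF. The largest negative difference was -0.76 ± 0.048 for CTSC. In HepG2, MITF averaged 0.54 CPM with vehicle and 0.798 CPM with 10 µM, near the counting floor, and its change there was not called. From 5 to 10 µM iMDK, 16 genes were higher and 4 lower in HepG2 (15.1% of all genes differed, 7.58% higher and 7.52% lower) and 11 higher and 4 lower in Huh6 (24.9% of all genes differed, 12.7% higher and 12.2% lower).

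Other genes of the same system, taken from lists chosen with earlier results of these data known, were counted alongside. Over all genes tested, 29.9% rose and 29% fell in HepG2 with 10 µM iMDK, 35.9% rose and 36.1% fell in HepG2 with 0.2 µM PKF118-310, 26% rose and 26.1% fell in Huh6 with 10 µM iMDK, and 28.9% rose and 27.9% fell in Huh6 with 0.4 µM PKF118-310. Of 10 further V-ATPase subunits tested, 8 rose and 1 fell in HepG2 with either 10 µM iMDK or 0.2 µM PKF118-310, and in Huh6 7 rose and 1 fell with 10 µM iMDK and 7 rose and 2 fell with 0.4 µM PKF118-310. ATP6V1D, a rotor subunit, averaged 66.7 CPM with PKF118-310 against 31.9 CPM with vehicle in HepG2 (1.07 ± 0.053), and the stalk subunit ATP6V1E1 averaged 138 CPM with 0.4 µM PKF118-310 against 80.5 CPM in Huh6 (0.78 ± 0.040). Of 19 further lysosomal enzymes, 12 rose and 5 fell in HepG2 with 10 µM iMDK, whereas 2 rose and 14 fell in Huh6 with 0.4 µM PKF118-310. CTSV, encoding the cathepsin L paralogue cathepsin V, fell in all 4 of these comparisons, by 1.42 with iMDK and 2.11 with PKF118-310 in HepG2 and by 0.59 with iMDK and 0.50 with PKF118-310 in Huh6.

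Of 12 autophagy genes, all 12 rose in HepG2 with PKF118-310 and 10 rose and 0 fell with 10 µM iMDK, and in Huh6 10 rose and 1 fell with 0.4 µM PKF118-310 and 9 rose and 1 fell with 10 µM iMDK. The shares of all genes that rose in these comparisons were 35.9% and 29.9% in HepG2 and 28.9% and 26% in Huh6. GABARAPL1, which marks autophagosome membranes, averaged 93.9 CPM with 10 µM iMDK against 25.5 CPM with vehicle in HepG2 (1.88 ± 0.050), and MAP1LC3B, its relative, rose by 1.24 ± 0.036. NBR1, an autophagy receptor like SQSTM1, fell in Huh6 by 0.57 ± 0.036 with 10 µM iMDK and 0.60 ± 0.037 with 0.4 µM PKF118-310. Among 10 genes of the mTORC1 and Rag pathway, RRAGD, a Rag GTPase that TFEB and TFE3 are known to induce, averaged 4.02 CPM with 10 µM iMDK against 0.724 CPM with vehicle in HepG2 (2.48 ± 0.25) and rose by 1.43 ± 0.19 in Huh6. RRAGC rose by 0.99 ± 0.074 in HepG2 and 0.72 ± 0.069 in Huh6 with 10 µM iMDK. RRAGD and RRAGC were named for the size of their change, which does not describe this list as a whole. SORT1, a receptor that sorts hydrolases to lysosomes, fell in HepG2 by 1.56 ± 0.037 with PKF118-310. Of the cystatins, inhibitors of cysteine cathepsins, CSTA rose and CST3 fell in HepG2 with PKF118-310, by 3.14 ± 0.15 and 1.42 ± 0.036.

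In macrophage libraries as counted, co-culture with untreated HepG2 cells raised 6 of 11 peptidases tested, 2 of 6 glycosidases and sulfatases and both activator genes, PSAP and GM2A, and lowered TFE3 and SQSTM1. The calls of the peptidase LGMN and of SQSTM1 were lost once estimated tumour reads were subtracted. Of 39 tested genes, 14 rose and 2 fell in THP-1 cells with HepG2 against THP-1 cells alone, when 21.6% of all 15500 genes tested changed, 12% rising and 9.68% falling. Their median log2 fold change was 0.21, beside -0.01 over all genes. GM2A, on chromosome 5 from 151212150 to 151270440 (plus strand), had 233, 221 and 240.1 CPM with HepG2 against 112, 114 and 107 CPM alone, a log2 fold change of 1.06 ± 0.12 (adjusted p = 1.44e-06). CTSH had 431, 373 and 372 CPM with HepG2 against 284, 251 and 236 CPM alone (0.61 ± 0.10). CTSF had 7.86, 5.58 and 5.02 CPM against 2.43, 2.33 and 2.67 CPM (1.31 ± 0.25). The groups did not overlap for these 3 genes. GAA rose by 0.67, ASAH1 and NPC1 by 0.56, CTSK, the collagen-cleaving cathepsin K, by 0.49, NEU1 by 0.40, CTSB and CTSS by 0.36, CD63 by 0.33 and PSAP by 0.27. TFE3 had 59.1, 56.2 and 62.3 CPM with HepG2 against 85, 83.7 and 80.2 CPM alone, a log2 fold change of -0.49 ± 0.079. SQSTM1 had 297, 275 and 334 CPM against 393, 354 and 356 CPM and fell by 0.28 ± 0.088. TFEB, MITF, LAMP1 and CTSL had -0.06, -0.19, 0.05 and 0.08 and were not called, and of 5 V-ATPase subunits 1 passed, ATP6AP1 (0.18).

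Sorted THP-1 libraries from these co-cultures carried reads of tumour marker genes. The estimated share of tumour reads was 9.16 to 10.5% with untreated HepG2, and the 14 hepatoblastoma markers summed to 2642 to 3199 CPM against 55.7 to 70.8 CPM in THP-1 cells alone. LGMN, the asparaginyl endopeptidase legumain, had 10.4, 12.5 and 14.7 CPM with HepG2 against 3.05, 5.14 and 5.94 CPM alone, and HepG2 vehicle cells had 85.7, 83.7 and 86.8 CPM. The tumour share would supply 63.7% of the LGMN reads in these co-cultures, and its log2 fold change of 1.40 ± 0.27 became 0.16 (adjusted p = 0.811) after subtraction of the estimated tumour reads. For the other genes tested the tumour part was at most 16.1%, in NPC1. After subtraction 18 genes were called, 14 of them among the 16 called as counted, and the median log2 fold change was 0.33. The call of SQSTM1 was also lost (-0.19, adjusted p = 0.133), while CTSA, CTSL, MAN2B1 and SMPD1 were gained. Leaving out replicate 3 of THP-1 with HepG2 reduced the count to 10, without ASAH1, ATP6AP1, CTSB, CTSS, NEU1 and PSAP, and leaving out any other library of the comparison gave at most 17. Among the cystatins, CSTB averaged 729.8 CPM with HepG2 against 440.1 CPM alone and rose by 0.73 ± 0.16, and CST3 averaged 251 CPM against 175 CPM, tumour reads included, with 871 CPM in HepG2 vehicle cells.

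**Figure D4:**
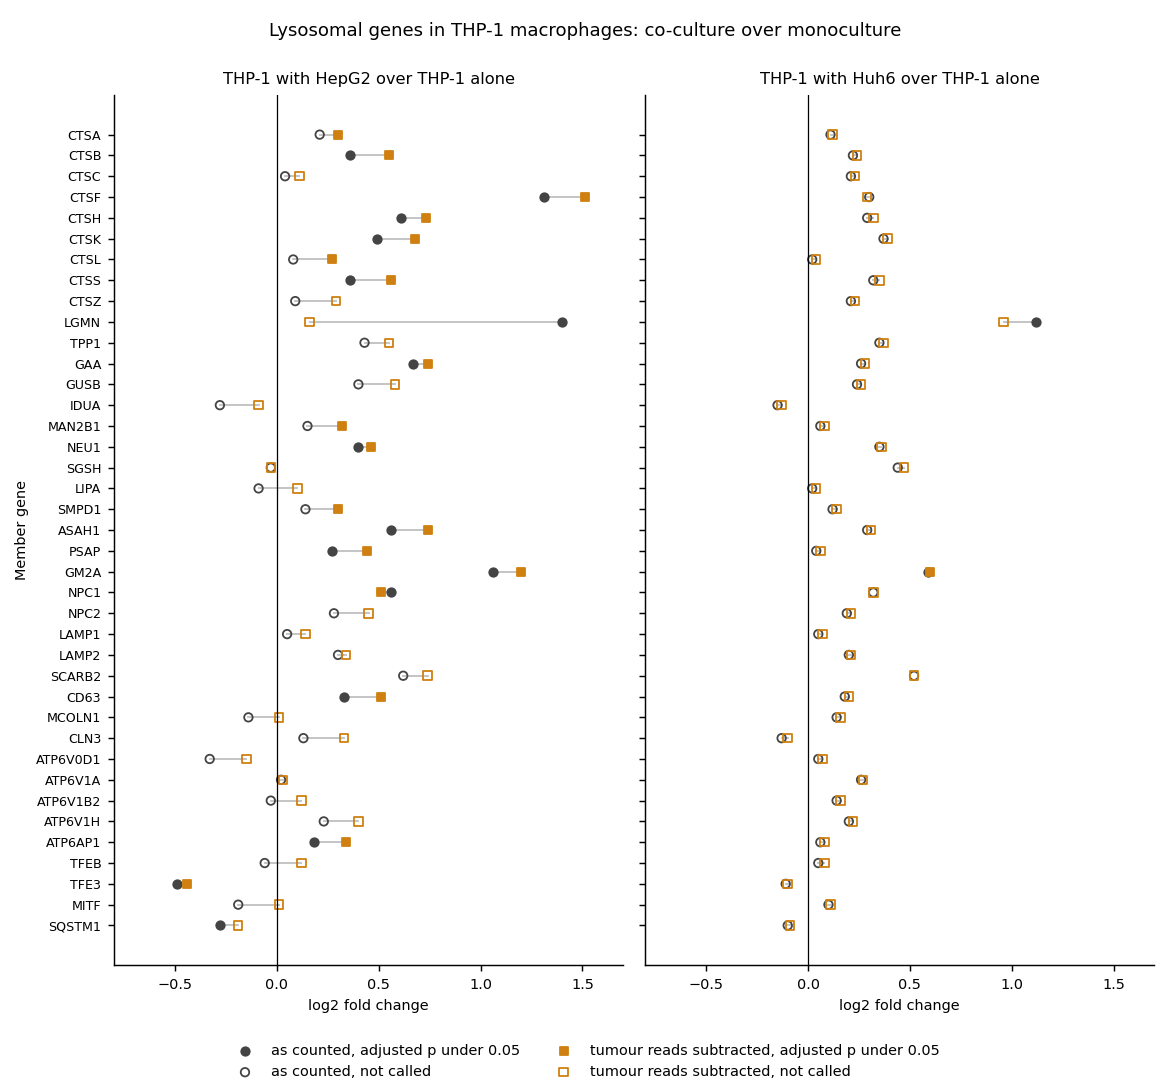
Log2 fold change of THP-1 cells in co-culture over THP-1 cells alone (x axis) for each tested lysosomal gene (y axis), with HepG2 on the left and Huh6 on the right. Circles are values as counted, squares are values after subtraction of the estimated tumour reads, and filled symbols have an adjusted p under 0.05; LGMN with HepG2 was 0.16 after subtraction and 1.40 as counted, while GM2A lay above 1 in both.

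Co-culture with untreated Huh6 cells changed fewer genes by this test. GM2A and LGMN rose and 0 of 39 fell, when 1.83% of all genes tested changed, 1.32% rising and 0.503% falling, and 10 of the 39 had an unadjusted p under 0.05. GM2A had 187, 148 and 166 CPM with Huh6 against 112, 114 and 107 CPM alone (0.59 ± 0.12, adjusted p = 0.0123), and LGMN had 8.27, 9.34 and 13.2 CPM against 3.05, 5.14 and 5.94 CPM (1.12 ± 0.28, adjusted p = 0.0352). Neither pair of groups overlapped, but the LGMN call was lost after subtraction of tumour reads (0.96, adjusted p = 0.368) and without any single library of the comparison other than replicate 3 of THP-1 alone. The GM2A call was lost without replicate 1 of THP-1 with Huh6 and without replicate 1 or 3 of THP-1 alone. The log2 fold change was above 0 for 35 of the 39 genes, with a median of 0.20, beside 0 over all genes. With the replicate number as a block, which these libraries share in their deviations, 10 genes rose and 0 fell, with GM2A and LGMN joined by genes such as CTSH, CTSK, CTSS, CD63, GAA, NEU1 and NPC1. The block called 927 of all 15500 genes tested in this comparison. The tumour share was 0.403 to 1.67% and would supply 11.6% of the LGMN reads. Between partners, CTSF, GM2A, GAA and CTSH were higher by 1.01, 0.47, 0.41 and 0.31 with HepG2 than with Huh6, and ATP6V0D1, TFE3 and MCOLN1 were lower, at -0.38, -0.37 and -0.28, when 16.7% of all genes differed, 9.13% higher and 7.56% lower. These 7 calls became 4 without replicate 1 or 2 of THP-1 with HepG2 or replicate 3 of THP-1 with Huh6, and 3 without replicate 2 of THP-1 with Huh6. After subtraction of tumour reads 9 genes were called, 8 higher and 1 lower. The calls of ATP6V0D1 (-0.21, adjusted p = 0.253) and MCOLN1 (-0.15, adjusted p = 0.248) were lost, those of PSAP (0.38), CD63 (0.31), CTSB (0.31) and ATP6AP1 (0.27) were gained, and CTSF, GM2A, GAA, CTSH and TFE3 were still called, at 1.22, 0.60, 0.47, 0.41 and -0.34.

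Pre-treatment of the tumour cells with iMDK gave no called change in the macrophages' lysosomal genes without a replicate block, and a few with one. With HepG2, 0 of 39 genes were called at 5 µM and 0 at 10 µM by edgeR's quasi-likelihood test, 5 and 5 had an unadjusted p under 0.05, and DESeq2 called 0 at either dose, when 0.0903% and 3.34% of all genes changed. With Huh6, 0 were called at either dose by edgeR or DESeq2, 2 at 5 µM and 3 at 10 µM had an unadjusted p under 0.05, and 0.0129% and 0.0581% of all genes changed. GM2A had 233, 221 and 240.1 CPM with untreated HepG2, 207, 167 and 159.6 CPM with 5 µM and 221, 155 and 169 CPM with 10 µM. All libraries with 5 µM lay below those without iMDK, those with 10 µM overlapped them, and the log2 fold changes of -0.38 ± 0.12 (adjusted p = 0.242) and -0.35 ± 0.12 (adjusted p = 0.133) were not called. SQSTM1 had 297, 275 and 334 CPM without iMDK and 372, 331 and 399.6 CPM with 10 µM, overlapping groups with a log2 fold change of 0.28 ± 0.088 (adjusted p = 0.0836). With the replicate number as a block, which these libraries share at 5 µM, GM2A (-0.39, adjusted p = 0.00743) and ATP6V0D1 (0.26, adjusted p = 0.00787) were called at 5 µM. The block called 614 of all 15500 genes tested at this dose. At 10 µM same-numbered libraries correlated in their deviations at 0.09, 0.34 and 0.4. There edgeR with the block called ATP6V0D1 (0.27, adjusted p = 0.00184), GM2A (-0.36, adjusted p = 0.00495), MITF (0.36, adjusted p = 0.00829) and SQSTM1 (0.28, adjusted p = 0.00965). At 10 µM the block called 1802 of all 15500 genes tested. The tumour share was 4.14 to 6.22% with 5 µM and 1.51 to 3.5% with 10 µM, against 9.16 to 10.5% without iMDK. After subtraction of the tumour reads, without the block, GM2A was called at 10 µM (-0.45, adjusted p = 0.0382). ATP6V0D1 (0.14, adjusted p = 0.584), MITF (0.21, adjusted p = 0.655) and SQSTM1 (0.11, adjusted p = 0.535) were not. The difference in response between partners gave 0 calls at either dose by edgeR or DESeq2, with 0 genes under an unadjusted p of 0.05, when 0.0129% and 0.0323% of all genes differed.

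**Figure D5:**
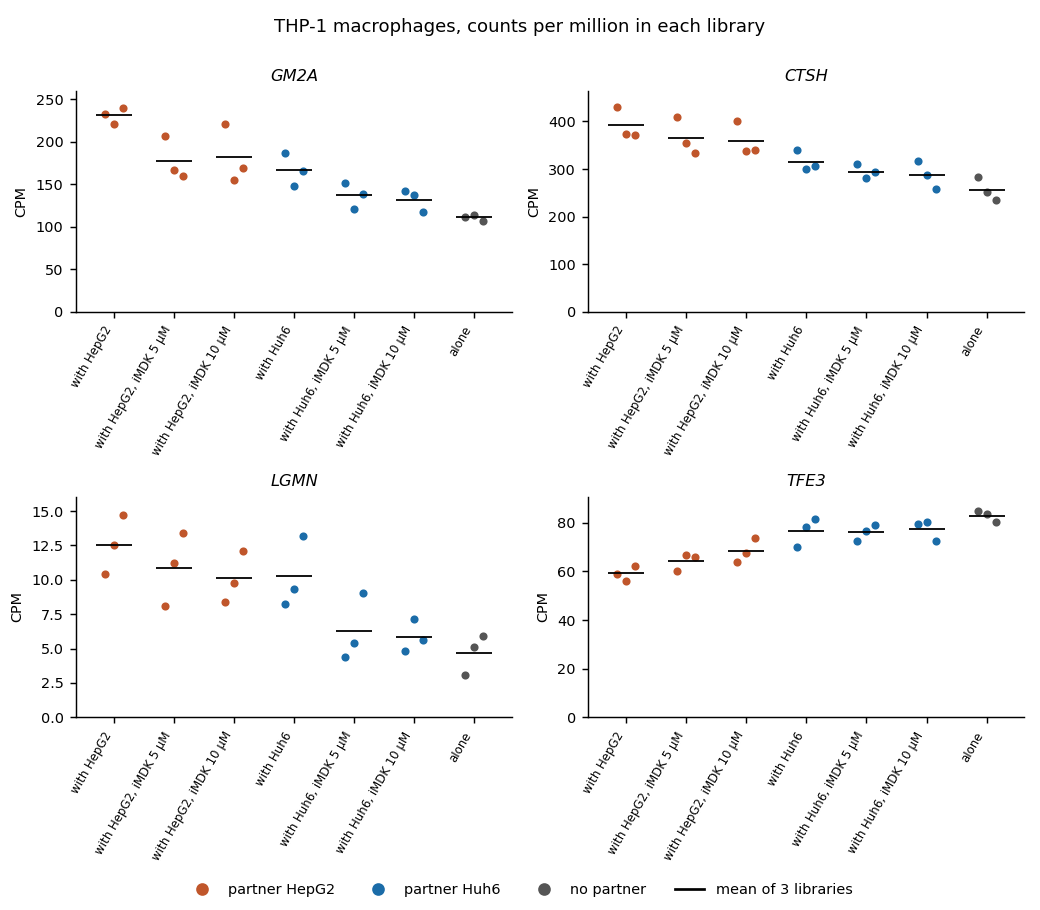
Scaled counts in CPM (y axis) of GM2A, CTSH, LGMN and TFE3 in each THP-1 library, by partner line and iMDK dose given to the partner (x axis). Points are libraries and lines are means of 3; GM2A had 221 to 240.1 CPM with untreated HepG2 and 148 to 187 CPM with untreated Huh6, against 107 to 114 CPM alone, and TFE3 ran the other way with HepG2 at 56.2 to 62.3 CPM against 80.2 to 85 CPM alone.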

How the data were processed

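RNA-seq counts per gene were deposited for 31 tumour and 21 THP-1 libraries. Per the labels' protocols, libraries were poly(A)-selected and directional. Per the submitters' processing notes, STAR 2.7.3a, SAMtools 1.16.1, featureCounts and edgeR 3.36 were used with GRCh38; the strand setting and annotation release were not given in the sources used here, so overlapping and antisense genes are uncertain. The authors' deposited values are raw counts, not normalised.

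Each comparison used the two-sided quasi-likelihood F test of edgeR 4.0.16 in R 4.3.3, with TMM scaling, the filterByExpr filter by group and Benjamini-Hochberg adjustment over all genes tested at 0.05. Huh6 (18 libraries), HepG2 (12 replicated libraries) and THP-1 (21 libraries) had a fit each, and 24 libraries of both lines were fitted together for differences between lines. CPM uses TMM-scaled library sizes, and the SE is the log2 fold change divided by the square root of F. Exon lengths and overlaps came from GENCODE 29 by gene ID. The tumour share of a THP-1 library was estimated from hepatoblastoma markers, and that share of the tumour line's counts was subtracted as an alternative. Other alternatives were DESeq2 1.42.0, RLE scaling, other filters, fits of the compared groups alone, a replicate block and leaving out each library. The tests were checked on simulated data.

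The 43 genes and all lists were chosen with earlier results of these data known. The genes given with values were, in each comparison, the 6 called genes with the highest and 6 with the lowest log2 fold change, plus CTSB, CTSD, CTSL, LAMP1, TFEB, TFE3, MITF and SQSTM1, and for other lists up to 3 called genes with the largest change; further members are named to describe a group. Replicate numbers come from the labels, which do not say that they mark a shared culture or day. Deviations of same-numbered libraries correlated at -0.06 to 0.05 in the 12 tumour comparisons and at 0.03 to 0.5 in the 7 THP-1 comparisons, where every pair was over 0.1 in 3: THP-1 with Huh6 against alone, and 5 µM iMDK with either partner.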

Additional observations from a re-analysis of the deposited data

Results flagged for a closer look

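The response of 30 lysosomal genes to 0.2 µM PKF118-310 differed between HepG2 and Huh6 by an interaction term in edgeR, as did that of 22 genes to 5 µM iMDK and 22 to 10 µM iMDK. These are counts of 39 genes tested, beside 54.1%, 32% and 40.5% of all genes tested. For 3 genes the called changes ran in opposite directions, and the share of all genes that did so was not counted. With 0.2 µM PKF118-310, NEU1, the sialidase, had a log2 fold change of -0.35 in HepG2 and 0.21 in Huh6, an interaction of -0.56. ATP6V1A, the catalytic V-ATPase subunit, had -0.16 in HepG2 and 0.19 in Huh6, an interaction of -0.36. LGMN, legumain, had 0.18 in HepG2 and -0.11 in Huh6 with 5 µM iMDK, an interaction of 0.30, and 0.29 in HepG2 and -0.19 in Huh6 with 10 µM, an interaction of 0.49.

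The single HepG2 library with 0.3 µM PKF118-310, which entered no test, held 6 of 37 genes at least 2-fold over the vehicle mean, beside 10.4% of all genes tested. The ratios were 4.67 for SQSTM1, 3.56 for CTSL, 2.41 for CTSB, 2.16 for ATP6V0D1, 2.05 for CD63 and 2.05 for TFE3. In all, 18 genes lay above and 16 below the range of the vehicle libraries, beside 42.8% and 42.5% of all genes, with no replicate to give an error.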

How the results depend on the processing

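Over 12331 gene values recomputed under the alternatives, 0 called values changed sign, and in the tumour lines every count of called genes stayed within 1.5 times. The counts in THP-1 cells moved more. For THP-1 with HepG2 against alone (16), leaving out a library gave 10 to 17, and the replicate block gave 24. For THP-1 with Huh6 against alone (2), no filter gave 4, a fit of the compared groups alone 1, subtraction of tumour reads 1, leaving out a library 0 to 1, and the replicate block 10. For HepG2 against Huh6 partners (7), leaving out a library gave 3 to 8 and the block 15. Of all 15500 genes tested, the block called 5119 with HepG2 against alone, 927 with Huh6 against alone and 4506 between partners. With HepG2 partners and iMDK, where 0 genes were called, no filter gave 1 at 5 µM and 2 at 10 µM, the block 2 and 4, subtraction 1 at 10 µM, and leaving out a library 0 to 1 at 10 µM. With Huh6 partners and 10 µM iMDK (0), no filter gave 1 and the block 1 (LGMN, -0.80), and the interaction at 10 µM gave 1 under the block (ATP6V0D1, 0.32). Of all genes, the block called 614 at 5 µM and 1802 at 10 µM with HepG2 partners. It called 75 at 10 µM with Huh6 partners and 188 for the interaction at 10 µM. The cause was not tested for any of these beyond the construction of each alternative. Over all comparisons the replicate block lost 3 calls and gained 32. Depth limits CTSZ, CTSF and MITF in HepG2, which lie near the counting floor.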
